A study of Saccharomyces cerevisiae with 6 samples.

Results

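The genes described here carry carbon through the tricarboxylic acid (TCA) cycle, the glyoxylate and methylcitrate cycles and gluconeogenesis in *Saccharomyces cerevisiae*, together with the enzymes and carriers that feed these routes and 6 of their regulators. They were taken from a list of 43 gene symbols matched to the probe-to-gene table of the GeneChip Yeast Genome 2.0 array. The match uses no measured value, but the list was chosen with earlier results of these data known. All 43 were found among the 5449 genes of *S. cerevisiae* on the array, each with 1 probe set of its own, and all lay above background on all 6 arrays. That background is low, since 5432 to 5456 of the 5498 *S. cerevisiae* probe sets lay above it on each array. RNA came from strain BY4742, a haploid of the alpha mating type with deletions in *HIS3*, *LEU2*, *LYS2* and *URA3*, which all groups carry. Cultures grew for 24 h in the rich glucose medium YPD and were then moved for 24 h to fresh YPD alone (untreated control), to YPD with 0.27 mg/L nystatin, or to YPD with 0.27 mg/L nystatin and 100 mg/L CdS QDs. Nystatin is a polyene that binds ergosterol in the fungal membrane and was added to ease entry of the particles, which are uncoated quantum dots of cadmium sulphide, and no group with CdS QDs alone was analysed here. The study's methods give a slightly lower dose of nystatin than the sample labels. Each group holds 2 arrays, made from 2 aliquots of RNA extract, so p-values measure only the spread between these arrays, which may be technical.

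As background, yeast on glucose ferments most of it to ethanol and holds down the genes for respiration and for the use of other carbon sources. When glucose runs out, ethanol and acetate are taken up, turned into acetyl-CoA and passed either to the TCA cycle in mitochondria or to the glyoxylate cycle, which bypasses the steps that release carbon dioxide and so allows growth from carbon pairs. Gluconeogenesis then rebuilds sugars from oxaloacetate. The methylcitrate cycle removes propionyl-CoA in mitochondria by a parallel set of enzymes. The activators Cat8, Sip4 and Adr1 switch on genes of ethanol and acetate use once repression ends, and Rtg1, Rtg2 and Rtg3 form the retrograde pathway, which tunes genes of the early TCA cycle and of peroxisomal citrate synthesis to the state of mitochondria.

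All values are log2 RMA values as deposited, and a difference of 1 is a 2-fold change. The words rose, fell and changed are kept for a Benjamini-Hochberg adjusted p under 0.05 in limma over the 5498 probe sets of *S. cerevisiae*. Levels of different genes are not compared, since each probe set has its own response. Among markers of the strain, *LYS2* and *URA3* lay below background on all 6 arrays and *LEU2* on 2 of them (1.29 to 2.29, against a background of 1.42 to 1.48), while *HIS3*, of which the strain's allele removes only a part, read 7.84 to 8.63. The 4 alpha-specific markers read 5.22 to 9.61 and the 7 a-specific ones 3.27 to 6.48, all above background. A value above background therefore does not show by itself that a gene is expressed. The signal of 3' probes minus that of 5' probes in 7 control genes averaged 1.41 to 1.47 on the untreated and nystatin arrays and 1.575 and 1.583 on the CdS QDs arrays. The 7 did not move alike. *WBP1* went from 1.79 and 1.77 untreated to 2.21 and 2.13 with CdS QDs added, and *SPT15* from 0.97 and 0.88 to 0.85 and 0.74. For ribosomal RNA the shift was larger. The 3' minus 5' signal of 18S rRNA was −1.39 and −1.34 on the untreated arrays, −0.94 and −0.85 with nystatin and 0.73 and 0.82 with CdS QDs added, and that of 25S rRNA was 5.56 and 5.54, then 5.67 and 5.64, then 6.18 and 6.75. These values move with the groups, and their part in the results was not tested. In such cultures, fewer cells using a route and less RNA of that route per cell cannot be told apart.

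With nystatin plus CdS QDs, these genes were lower than in the untreated control almost throughout. A drop past the threshold was seen in 36 of the 43 and a rise in 0, leaving 7 that did not pass, so 83.7% fell where 38.9% of all probe sets fell and 36.5% rose (75.4% in either direction). Their median log2 difference was −0.62, against −0.01 over all probe sets tested. Past the study's thresholds, a log2 difference of at least 1 in size with an unadjusted p under 0.01, were 13 genes, all lower (30.2% of the 43, where 5.15% of all probe sets were lower at those thresholds, 4.95% higher and 10.1% either). In 37 genes both CdS QDs arrays lay below both untreated arrays and in 2 above, an order that 44.9% and 42.7% of all probe sets show. These 13 were *CIT3*, *PDH1* and *ICL2* of the methylcitrate cycle, *ICL1*, *MLS1* and *MDH2* of the glyoxylate cycle, *ADH2* and *ACS1* of ethanol and acetate use, the carnitine and lactate genes *YAT1*, *YAT2*, *CRC1* and *JEN1*, and the regulator *SIP4*. None of the 11 TCA cycle genes was among them.

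**Figure D1:**
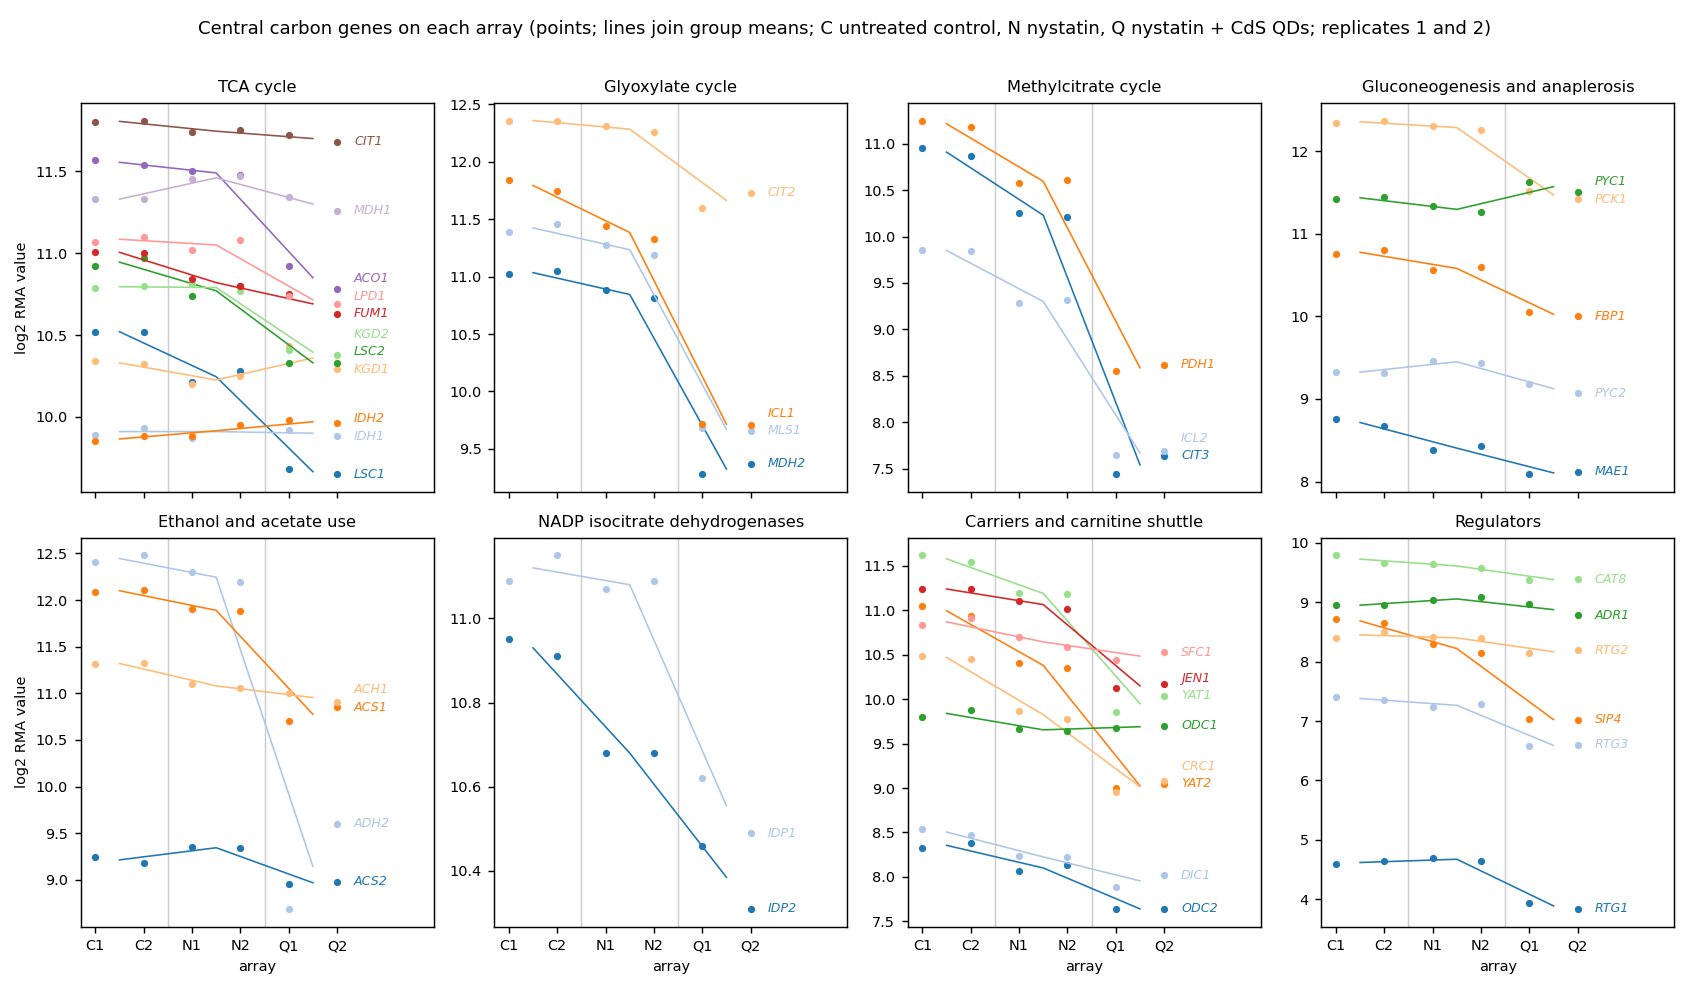
log2 RMA values of the 43 genes on each array, in 8 panels by pathway step; points are single arrays (C, untreated control; N, nystatin; Q, nystatin plus CdS QDs) and lines join group means. The methylcitrate genes and *ADH2* show the deepest drops on the CdS QDs arrays, *CIT3* from 10.95 and 10.87 to 7.44 and 7.64, while *CIT1* stays between 11.68 and 11.81 and *IDH1* between 9.87 and 9.95 on all 6 arrays.

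The methylcitrate cycle was the step with the lowest median, −2.63 over its 3 genes. *CIT3*, for the mitochondrial citrate and methylcitrate synthase that opens this cycle, read 10.95 and 10.87 untreated, 10.25 and 10.21 with nystatin alone and 7.44 and 7.64 with CdS QDs added. The groups do not overlap, and both treatments lay below the control. Against the control *CIT3* fell by 3.37 log2 units with nystatin plus CdS QDs (standard error 0.073, adjusted p = 1.26e-07), to a level 10.3-fold lower, and only 9 of the 5498 probe sets had a lower difference. *PDH1*, for the methylcitrate dehydratase, read 11.25 and 11.18, then 10.58 and 10.61, then 8.55 and 8.62 in the same order of groups. It fell by 2.63 (standard error 0.049, adjusted p = 8.77e-08), 6.18-fold. *ICL2*, for the methylisocitrate lyase that closes the cycle by releasing pyruvate and succinate, read 9.86 and 9.84, then 9.28 and 9.32, then 7.65 and 7.69. It fell by 2.18 (standard error 0.043, adjusted p = 1.05e-07), or 4.54-fold, again with no overlap between groups.

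*CIT3* (YPR001W) and *PDH1* (YPR002W) are neighbours on the chromosome in the R64 annotation, and *ICL2* (YPR006C) follows after 3 other genes. Those in between did not share the size of the change. *YPR003C*, which resembles sulphate transporters, fell by 0.20 (standard error 0.069, adjusted p = 0.0340), whereas *AIM45*, for a mitochondrial protein that resembles an electron transfer flavoprotein, rose by 0.57 (standard error 0.044) and *HAL1*, a gene of salt tolerance, rose by 0.44 (standard error 0.071).

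In the glyoxylate cycle all 4 genes fell, with a median of −1.73. *ICL1* encodes isocitrate lyase, which splits isocitrate into glyoxylate and succinate, and read 11.84 and 11.75 untreated, 11.44 and 11.33 with nystatin alone and 9.72 and 9.71 with CdS QDs added. It fell by 2.08 (standard error 0.055, adjusted p = 3.06e-07), 4.22-fold. *MLS1*, for malate synthase, the partner reaction, went from 11.39 and 11.46 over 11.28 and 11.19 to 9.68 and 9.66. It fell by 1.76 (standard error 0.051), or 3.38-fold, with the CdS QDs arrays far below both other groups. *MDH2*, for the cytosolic malate dehydrogenase that serves the glyoxylate cycle and gluconeogenesis, read 11.02 and 11.05, then 10.88 and 10.81, then 9.28 and 9.37, and fell by 1.71 (standard error 0.052). *CIT2*, for the peroxisomal citrate synthase, moved least of the 4, from 12.36 and 12.36 over 12.31 and 12.26 to 11.60 and 11.73. It fell by 0.70 (standard error 0.055, adjusted p = 2.88e-05), 1.62-fold.

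The TCA cycle itself changed less. A drop was called in 6 of its 11 genes and no rise, with a median of −0.32 and a range from −0.86 to 0.10. The 54.5% that fell lie nearer to the 38.9% of all probe sets than the other steps do. The genes that fell code for aconitase and for the stretch from alpha-ketoglutarate to malate. *LSC1*, the alpha subunit gene of succinyl-CoA ligase, read 10.52 on both untreated arrays, 10.21 and 10.28 with nystatin alone and 9.68 and 9.65 with CdS QDs added, and fell by 0.86 (standard error 0.046, adjusted p = 4.51e-06). *ACO1*, for aconitase, an iron-sulphur enzyme that turns citrate into isocitrate, read 11.57 and 11.54, then 11.50 and 11.48, then 10.92 and 10.78, and fell by 0.71 (standard error 0.056). *LSC2*, for the beta subunit of succinyl-CoA ligase, fell by 0.62 (standard error 0.046). In linear terms *LSC1* was 1.81-fold, *ACO1* 1.63-fold and *LSC2* 1.53-fold lower. *KGD2*, for the succinyltransferase subunit of alpha-ketoglutarate dehydrogenase, fell by 0.40 (standard error 0.043), *LPD1*, for the dihydrolipoamide dehydrogenase it shares with other complexes, by 0.37 (standard error 0.046) and *FUM1*, for fumarase, by 0.32 (standard error 0.052, adjusted p = 0.00111).

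The remaining 5 TCA genes did not pass, and 2 of them are subunits of a single enzyme. *IDH1* and *IDH2* encode the NAD-dependent isocitrate dehydrogenase of mitochondria, the step after aconitase. *IDH1* read 9.89 and 9.93, then 9.87 and 9.95, then 9.92 and 9.88, so the groups overlap, and the 95% confidence interval of its difference ran from −0.12 to 0.11. *IDH2* read 9.85 and 9.88, then 9.88 and 9.95, then 9.98 and 9.96, with a difference of 0.10 (standard error 0.046, adjusted p = 0.0900). *CIT1*, the mitochondrial citrate synthase gene, was at −0.10 (interval −0.20 to −0.005, adjusted p = 0.0561), *MDH1*, the mitochondrial malate dehydrogenase gene, at −0.03 (interval −0.14 to 0.08) and *KGD1*, for the dehydrogenase subunit of the alpha-ketoglutarate complex, at 0.03 (interval −0.10 to 0.17).

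**Figure D2:**
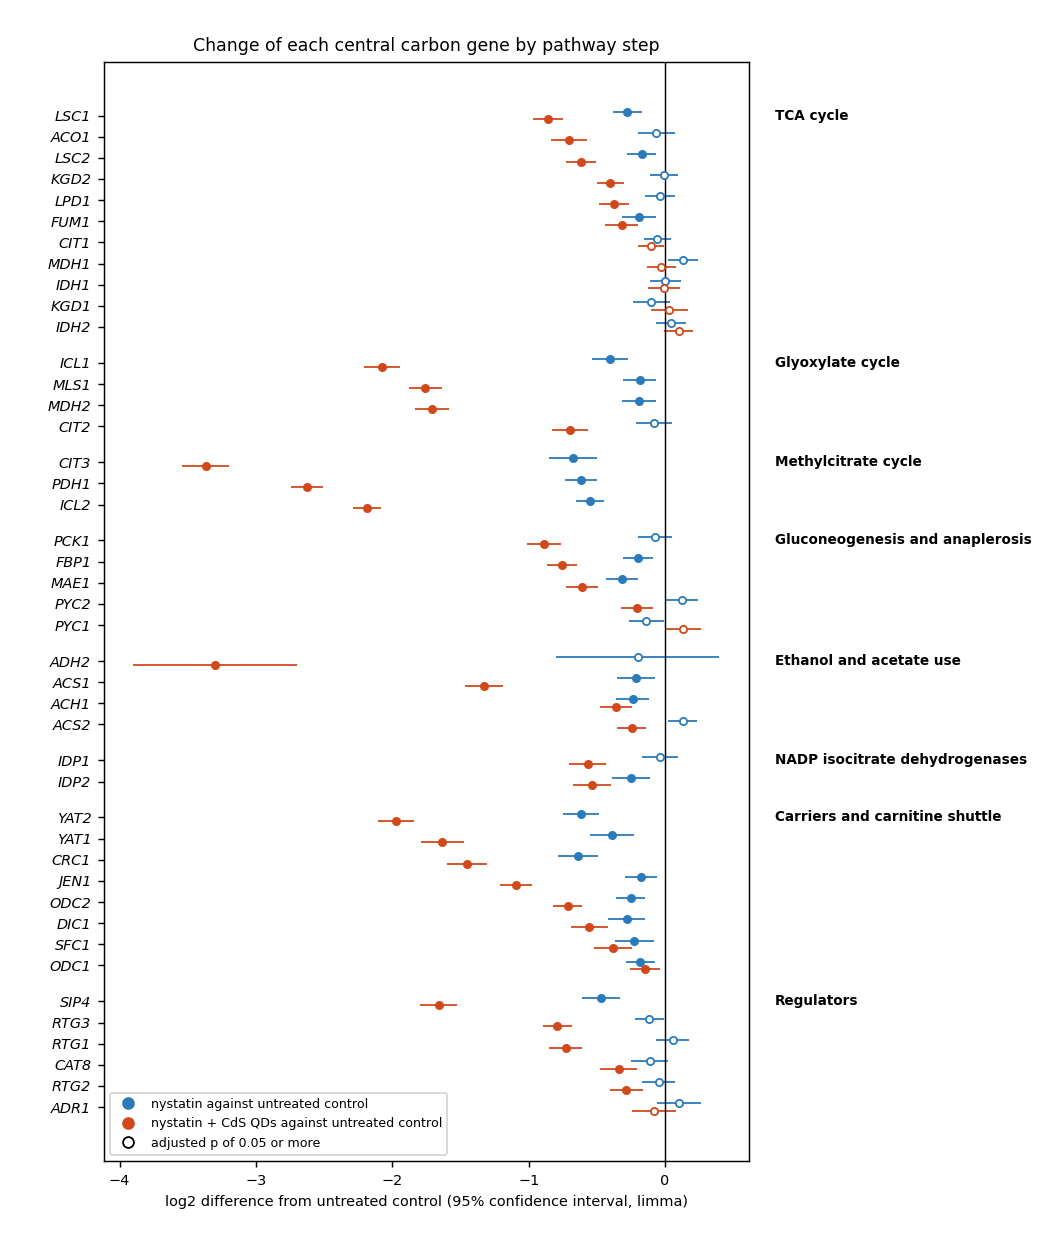
Log2 difference of each gene from the untreated control (x axis) with its 95% confidence interval from limma, for nystatin (blue) and nystatin plus CdS QDs (red), ordered within each pathway step; open circles have an adjusted p of 0.05 or more. The red points of the methylcitrate genes lie between −3.37 and −2.18, and those of the TCA cycle between −0.86 and 0.10.

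Of the 5 genes of gluconeogenesis and anaplerosis 4 fell, with a median of −0.61. *PCK1*, for phosphoenolpyruvate carboxykinase, which commits oxaloacetate to gluconeogenesis, read 12.34 and 12.37 untreated, 12.31 and 12.26 with nystatin alone and 11.52 and 11.42 with CdS QDs added. It fell by 0.89 (standard error 0.052, adjusted p = 6.92e-06), 1.85-fold. *FBP1*, for fructose bisphosphatase, a late step of the same route, went from 10.75 and 10.80 over 10.56 and 10.60 to 10.05 and 10.00, and fell by 0.75 (standard error 0.046). Both genes changed less than *ICL1*, *MLS1* and *MDH2*, whose intervals lie wholly below theirs. *MAE1*, for the malic enzyme of mitochondria, which turns malate into pyruvate, fell by 0.61 (standard error 0.049). The pyruvate carboxylase genes *PYC1* and *PYC2*, which make oxaloacetate from pyruvate, parted: *PYC2* fell by 0.21 (standard error 0.051, adjusted p = 0.00822), and *PYC1* was at 0.13 (standard error 0.054, adjusted p = 0.0562), from 11.42 and 11.45 untreated to 11.63 and 11.51 with CdS QDs added. Without nystatin plus CdS QDs replicate 2 and in 2 further alternatives *PYC1* passed (adjusted p 0.0121 to 0.0224).

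Of ethanol and acetate use all 4 genes fell, with a median of −0.85. *ADH2*, for the alcohol dehydrogenase that oxidises ethanol and is repressed by glucose, read 12.41 and 12.48 untreated, 12.30 and 12.19 with nystatin alone and 8.69 and 9.60 with CdS QDs added. The 2 CdS QDs arrays lie far apart for this gene, yet both are well below every other array. It fell by 3.30 (standard error 0.25, adjusted p = 2.42e-05), 9.85-fold. Without nystatin plus CdS QDs replicate 1 *ADH2* fell by 2.85, and without replicate 2 it fell by 3.75. *ACS1*, for the acetyl-CoA synthetase of non-fermentative growth, went from 12.09 and 12.11 over 11.90 and 11.88 to 10.70 and 10.85, and fell by 1.33 (standard error 0.059, adjusted p = 2.02e-06). *ACS2*, for the synthetase that yeast needs on glucose, fell by 0.24 (standard error 0.044), and *ACH1*, for a mitochondrial enzyme that moves CoA between acetate and succinate, fell by 0.36 (standard error 0.050). The NADP-dependent isocitrate dehydrogenase genes fell to a similar extent, the mitochondrial *IDP1* by 0.57 (standard error 0.056) and the cytosolic *IDP2* by 0.54 (standard error 0.058).

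All 8 genes of carriers and of the carnitine shuttle fell, with a median of −0.90. The carnitine shuttle brings acetyl units made in the cytosol or the peroxisome into mitochondria. *YAT2*, for a carnitine acetyltransferase, read 11.05 and 10.94, then 10.41 and 10.35, then 9.0 and 9.05, and fell by 1.97 (standard error 0.055, adjusted p = 3.74e-07), 3.92-fold. Its relative *YAT1*, on the outer mitochondrial membrane, went from 11.62 and 11.54 over 11.20 and 11.18 to 9.86 and 10.04 and fell by 1.63 (standard error 0.067). *CRC1*, for the carrier that takes acetylcarnitine across the inner membrane, read 10.49 and 10.45, then 9.87 and 9.78, then 8.95 and 9.08, and fell by 1.45 (standard error 0.061). In each of these 3 genes the nystatin arrays lay between those of the control and those with CdS QDs. The same order was seen in *JEN1*, *SFC1*, *DIC1* and *ODC2* of this step and in genes of other steps, such as *ICL1* and *LSC1*. Of all probe sets, 35.8% have both nystatin arrays below both untreated ones, and 44.6% have both CdS QDs arrays below both nystatin ones. The share with both orders at once was not computed. *JEN1*, for the lactate and pyruvate permease of the plasma membrane, read 11.24 on both untreated arrays, 11.11 and 11.02 with nystatin alone and 10.13 and 10.17 with CdS QDs added, and fell by 1.09 (standard error 0.050). The mitochondrial carriers of organic acids moved less. *ODC2*, for a carrier of oxodicarboxylates, fell by 0.72 (standard error 0.045), *DIC1*, for the dicarboxylate carrier, by 0.55 (standard error 0.056) and *SFC1*, which exchanges succinate for fumarate, by 0.38 (standard error 0.059). *ODC1*, the other oxodicarboxylate carrier gene, fell by 0.15 (standard error 0.046, adjusted p = 0.0222), a call that was lost in 5 of 16 alternatives (adjusted p 0.0503 to 0.204), among them those without untreated control replicate 2 and without nystatin plus CdS QDs replicate 1.

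Among the regulators 5 of 6 fell. *SIP4*, for a zinc cluster activator that acts with Cat8 and whose own gene depends on Cat8, read 8.72 and 8.65 untreated, 8.29 and 8.15 with nystatin alone and 7.03 and 7.02 with CdS QDs added. It fell by 1.66 (standard error 0.058, adjusted p = 7.69e-07), 3.16-fold. *CAT8* read 9.79 and 9.66, then 9.64 and 9.58, then 9.37 and 9.39, and fell by 0.34 (standard error 0.057, adjusted p = 0.00123), so that its interval (−0.48 to −0.21) lies apart from that of *SIP4* (−1.80 to −1.52). *ADR1*, for the activator of *ADH2* and of peroxisomal genes, read 8.95 on both untreated arrays, 9.03 and 9.08 with nystatin alone and 8.97 and 8.78 with CdS QDs added. Its groups overlap, and its difference was −0.08 (interval −0.24 to 0.08, adjusted p = 0.304), although without nystatin plus CdS QDs replicate 1 it passed (adjusted p = 0.0168).

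The retrograde regulators were all lower. *RTG3*, for a transcription factor of the basic helix-loop-helix type that works as a pair with Rtg1, read 7.40 and 7.36, then 7.24 and 7.29, then 6.58 and 6.60, and fell by 0.79 (standard error 0.045, adjusted p = 6.03e-06). *RTG1* read 4.60 and 4.64, then 4.70 and 4.65, then 3.94 and 3.84, and fell by 0.73 (standard error 0.051, adjusted p = 1.66e-05). *RTG2*, for the sensor that lets this pair enter the nucleus, fell by 0.29 (standard error 0.051, adjusted p = 0.00170). The values of *RTG1* lie within the range of the a-specific markers, 3.27 to 6.48. Of those markers, *STE2* fell by 1.10, *STE6* by 0.94, *ASG7* by 0.22 and *BAR1* by 0.20. *AGA2* rose by 0.61 and *MFA2* by 0.26, and *MFA1* did not pass. Whether the fall of *RTG1* reflects its own RNA was not tested. In *RTG1*, *RTG2* and *RTG3*, as in *CAT8* and *SIP4*, both CdS QDs arrays lay below all 4 others. Of all probe sets, 44.9% show this order against the untreated arrays alone and 44.6% against the nystatin arrays alone. The share below all 4 was not computed.

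Beside these regulators stand the genes they are known to act on. Both lists were drawn from the members after the values were seen, and 36 of the 43 members fell, so they are no independent evidence. Of 9 members known as targets of Cat8 and Sip4 (*ICL1*, *MLS1*, *MDH2*, *PCK1*, *FBP1*, *ACS1*, *SFC1*, *JEN1* and *IDP2*), all 9 fell, from −2.08 (*ICL1*) to −0.38 (*SFC1*), with a median of −1.09. Of 5 members whose expression is known to depend on the retrograde pathway when respiration fails (*CIT1*, *CIT2*, *ACO1*, *IDH1* and *IDH2*), *ACO1* and *CIT2* fell and 3 did not pass, with a median of −0.10. The share that fell in this group, 40.0%, is close to the 38.9% of all probe sets, but it rests on 5 genes. *CIT1* passed as lower without moderation and with an intensity trend (adjusted p 0.0147 to 0.0242). *IDH2* passed as higher with an intensity trend and with repeated quantile normalization (adjusted p 0.0209 to 0.0475).

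Related enzymes and carriers were set against each other within each array, as the log2 ratio of their probe sets minus its untreated mean. A ratio of this kind shows unequal change and not which gene stayed. *CIT3* over *CIT1* was −3.39 and −3.15 on the CdS QDs arrays and −0.59 and −0.64 on the nystatin arrays, and *CIT2* over *CIT1* was −0.67 and −0.51 with CdS QDs. *MDH2* over *MDH1* was −1.77 and −1.60, and *ACS2* over *ACS1* was 1.15 and 1.02. In contrast *ICL2* over *ICL1* was −0.13 and −0.08, and *IDP2* over *IDP1* was 0.04 and 0.02, which overlaps the untreated arrays (0.05 and −0.05). Of the 10 pairs compared, the ratio on the CdS QDs arrays did not overlap that on the untreated arrays in 9, and single probe sets of these groups do not overlap in 44.9% (lower) and 42.7% (higher) of cases. With 2 arrays a group the exact permutation test, two-sided, cannot go below p = 0.33, the value of all 9, so no ratio can pass by that test.

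**Figure D3:**
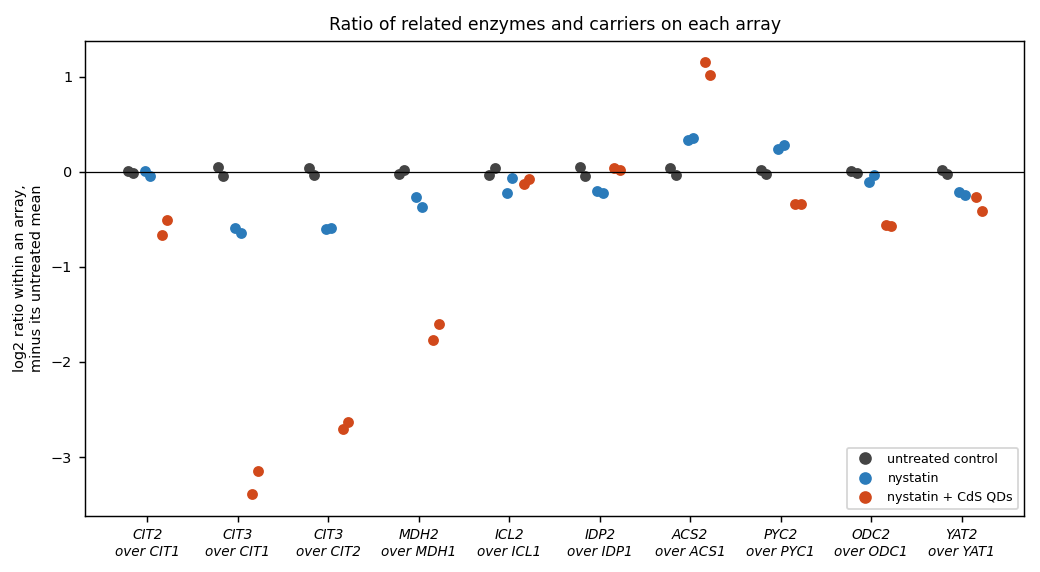
Log2 ratio of the probe sets of related genes on each array (y axis), minus its mean on the untreated arrays, for 10 pairs; points are single arrays coloured by group. *CIT3* over *CIT1* drops to −3.39 and −3.15 with nystatin plus CdS QDs, whereas *IDP2* over *IDP1* returns to 0.04 and 0.02.

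Nystatin alone had smaller effects on the same genes. Of the 43, 23 fell and 0 rose (53.5% fell, where 11.4% of all probe sets fell, 10.4% rose and 21.8% changed either way), with a median of −0.18 against −0.005 over all probe sets. No member reached the study's thresholds, which 0.109% of all probe sets passed (0.0728% lower, 0.0364% higher). Both nystatin arrays lay below both untreated ones in 32 genes and above in 5, where 35.8% and 34.3% of all probe sets do so. The lowest values belonged to the methylcitrate cycle and the carnitine shuttle. *CIT3* fell by 0.68 (standard error 0.073, adjusted p = 0.00321), *CRC1* by 0.64 (standard error 0.061, adjusted p = 0.00239), *YAT2* by 0.62 (standard error 0.055), *PDH1* by 0.61 (standard error 0.049) and *ICL2* by 0.55 (standard error 0.043, adjusted p = 0.00139). *SIP4* fell by 0.47 (standard error 0.058) and *ICL1* by 0.40 (standard error 0.055), while the other 5 regulators did not pass. All 8 carrier and carnitine genes fell, and 3 of 11 TCA genes, *LSC1*, *LSC2* and *FUM1*. *MDH1*, *ACS2*, *PYC2* and *ADR1* were at 0.13, 0.13, 0.12 and 0.10 and did not pass. *ADH2* was at −0.20 (adjusted p = 0.594) and passed only where the spread of 1 or both CdS QDs arrays was left out of the fit (adjusted p = 0.0404). The count of 23 depended on single arrays. It was 5 without untreated control replicate 1, 8 without replicate 2, 7 without nystatin replicate 1 and 6 without replicate 2, where 1.58%, 2.36%, 4.46% and 1.87% of all probe sets fell.

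Between nystatin and nystatin plus CdS QDs, the comparison that holds nystatin constant, 35 of the 43 fell and 1 rose, and 7 did not pass. The 81.4% that fell stand against 38.3% of all probe sets, of which 36.7% rose and 75.0% changed either way, and the median was −0.46 beside −0.01. Both CdS QDs arrays were below both nystatin arrays in 38 genes and above in 4, an order shown by 44.6% and 42.7% of all probe sets. It shares its nystatin arrays, or its CdS QDs arrays, with the comparisons above. Past the study's thresholds were 11, all lower (25.6% of the 43, against 4.66% of all probe sets lower, 4.87% higher and 9.53% either), since *JEN1* (−0.91) and *CRC1* (−0.81) no longer reached them. *ADH2* had the lowest value, −3.10 (standard error 0.25, adjusted p = 3.45e-05), followed by *CIT3* at −2.69 (standard error 0.073) and *PDH1* at −2.01 (standard error 0.049). *ICL1* fell by 1.67, *ICL2* by 1.63, *MLS1* by 1.57 and *MDH2* by 1.52. The only member that rose was *PYC1*, by 0.27 (standard error 0.054, adjusted p = 0.00302), from 11.33 and 11.26 to 11.63 and 11.51, and its paralogue *PYC2* fell by 0.33 (standard error 0.051). The fall of *SFC1* (adjusted p = 0.0457) was lost in 10 of 16 alternatives, with an adjusted p up to 0.420. That of *MDH1* (adjusted p = 0.0180) was lost in 6, with an adjusted p up to 0.165. All 6 regulators fell in this comparison, *SIP4* by 1.19, *RTG1* by 0.78, *RTG3* by 0.68, *RTG2* by 0.24, *CAT8* by 0.23 and *ADR1* by 0.18. The call of *ADR1* (adjusted p = 0.0446) was lost in 11 of 16 alternatives, with an adjusted p up to 0.410, and that of *CAT8* without nystatin replicate 1 and with Benjamini-Yekutieli adjustment.

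**Figure D4:**
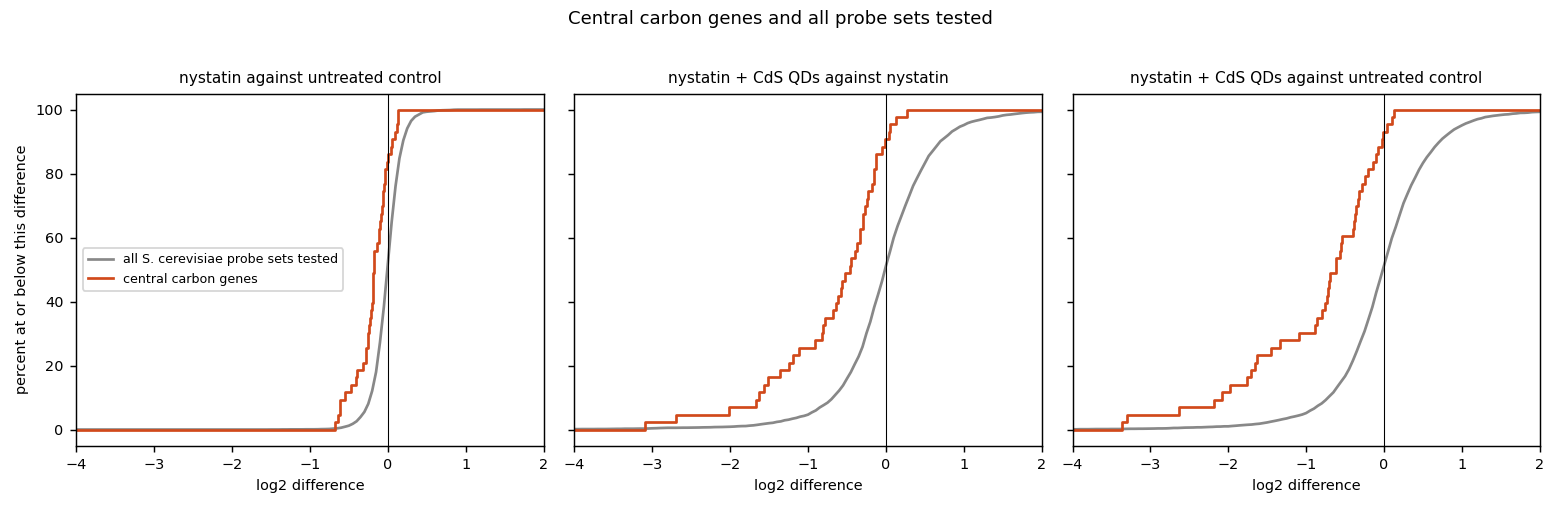
Cumulative percent of the 43 central carbon genes (red) and of all 5498 *S. cerevisiae* probe sets tested (grey) by log2 difference, in the 3 comparisons. Apart from the tails, the red line runs to the left of the grey one in each panel, with medians of −0.18, −0.46 and −0.62 against −0.005, −0.011 and −0.014.

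Further genes of these routes were listed by function and not by how they moved, though with earlier results of these data known. With CdS QDs added, 38 of the 74 measured were called lower than untreated and 21 higher (51.4% fell, median −0.14), where 38.9% of all probe sets fell and 36.5% rose, with a median of −0.014. The counts of calls in the short lists that follow are to be read against those shares, and several are close to them. The pyruvate dehydrogenase complex with its kinases and phosphatases, which passes pyruvate to the TCA cycle as acetyl-CoA, had 8 of 8 that fell, among them the phosphatase gene *PTC5* by 0.74 and the kinase genes *PKP2* by 0.69 and *PKP1* by 0.41, while none of the 8 changed with nystatin alone. Of 7 genes of succinate dehydrogenase, the catalytic and membrane subunits fell, *SDH2* by 0.96, and of the assembly factors *SDH5* rose by 0.61 and *SDH7* by 0.45. Of 6 other cycle enzymes 3 fell and 2 rose, with *IDP3*, for the peroxisomal NADP isocitrate dehydrogenase, which fell by 2.61, *KGD4*, of the alpha-ketoglutarate complex, by 0.49, and the glyoxylate aminotransferase gene *AGX1*, which rose by 0.27. *CAT2*, for the main carnitine acetyltransferase, fell by 1.65 against untreated, by 0.51 with nystatin alone and by 1.14 between nystatin and CdS QDs. *HNM1*, the choline permease gene, fell by 0.42 against untreated and by 0.43 with nystatin alone, and was at 0.0012 between nystatin and CdS QDs. *AGP2*, the carnitine permease gene, fell by 0.14 against untreated and by 0.32 with nystatin alone, and rose by 0.17 (adjusted p = 0.00812) between nystatin and CdS QDs. Of 5 aldehyde dehydrogenase genes 3 fell, *ALD3* by 1.5, *ALD5* by 0.86 and *ALD4* by 0.46, and 1 rose. The study places *ALD3* in beta-alanine synthesis. Of 10 further mitochondrial carriers 5 rose and 3 fell, near the shares of all probe sets. *PIC2*, for a copper and phosphate carrier, rose by 1.4 and *YHM2*, for a citrate and oxoglutarate carrier, by 0.58, and *MPC1*, of the mitochondrial pyruvate carrier, fell by 1.37.

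Among 19 further regulators of non-fermentable carbon use 7 rose and 10 fell (52.6% fell), where 36.5% of all probe sets rose and 38.9% fell. *HXK2*, for the hexokinase that also acts in glucose repression, rose by 1.19 (standard error 0.056, adjusted p = 2.60e-06) and by 1.03 between nystatin and CdS QDs. *MIG1*, for the repressor it works with, fell by 0.62 against untreated and already by 0.50 with nystatin alone (adjusted p = 0.00297), and was at −0.12 (adjusted p = 0.0629) between nystatin and CdS QDs. *PIP2*, for an activator of peroxisomal genes, fell by 0.67. Of 8 further retrograde genes 3 fell and 1 rose. *DLD3*, for a lactate dehydrogenase of the cytosol and known as a retrograde target, fell by 0.97, and *GLN1* and *GLT1*, which make glutamine and glutamate, fell by 1.68 and 1.38. In the GID complex, which marks gluconeogenic enzymes for breakdown, 3 of 8 rose and 1 fell, with a share that rose near that of all probe sets. *VID24* rose by 0.35 and *UBC8* by 0.28, and *VID28* fell by 0.48.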

How the data were processed

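The deposited table holds log2 values of 6 arrays: per the labels and the study's methods, the authors used RMA in Affymetrix Expression Console, that is, background correction, quantile normalization across arrays and a robust summary of the probes in each set. Quantile normalization forces equal distributions, so a shift common to all genes cannot be seen. Gene names came from the platform annotation, updated through R64 identifiers. Each of the 43 genes has 1 probe set. Background on an array is the 95th percentile of its *S. pombe* probe sets.

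One mean per group was fitted in limma 3.58.1 (R 4.3.3) over 5498 probe sets with eBayes moderation (residual degrees of freedom 3, prior 3.80), two-sided, with Benjamini-Hochberg adjustment. The number of arrays limits the precision. Replicate numbers were not used as pairs. The genes, the lists and the tests were chosen with earlier results of these data known, so the lists are no independent evidence. All 43 genes are named, and of the further lists the 3 with the smallest adjusted p for nystatin plus CdS QDs against untreated. The lists of known targets, the related pairs and the genes between *CIT3* and *ICL2* were chosen after the values were seen. Promoter motifs and sequences were not analysed here. The fit was run on simulated data with independent noise and few changed probe sets, which cannot give the error rate of the calls here. Tables and figures used Python 3.11.15, pandas 2.3.3 and matplotlib 3.10.9.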

Additional observations from a re-analysis of the deposited data

How the results depend on the processing

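Over 16 alternatives the count that fell with CdS QDs added, against untreated, ran from 34 to 37 around 36 (35 to 36 when each array was left out), and 13 genes passed the study's thresholds each time an array was left out. The count that rose was 2 with an intensity trend and 2 with repeated quantile normalization (*IDH2* and *PYC1*) and 0 to 1 with an array left out, and the median was −0.60 with repeated quantile normalization and −0.66 to −0.62 with an array left out. Against nystatin, 31 to 36 fell and 1 to 2 rose with an array left out, 2 rose with an intensity trend and 2 with repeated quantile normalization (*KGD1* and *PYC1*), and the median ran from −0.49 to −0.44. With Benjamini-Yekutieli adjustment, 79.1% of these genes fell against untreated with CdS QDs added, where 30.8% of all *S. cerevisiae* probe sets did. Against nystatin these shares were 72.1% and 30.1%. The nystatin comparison depended most on the processing. Of 23 that fell, 3 were left without moderation and 3 over all probe sets on the array. With Benjamini-Yekutieli adjustment 7 were left, and 15 with replicate number as a block. In this order, these are 6.98%, 6.98%, 16.3% and 34.9% of the genes. Of all *S. cerevisiae* probe sets 1.53%, 0.4%, 1.86% and 9.2% fell, so calls were lost there too and the share of these genes stayed higher. With an array left out 5 to 24 fell, 0 rose and the median ran from −0.20 to −0.15, 2 rose with an intensity trend (*ACS2* and *MDH1*), and the median was −0.17 with repeated quantile normalization. The cause was not tested, apart from fewer arrays where one was left out. Replicate deviations of groups correlated at −0.051 to 0.025, so the numbers gave no sign of pairing, and the replicate block moved no other count by over 1.5 times. Signs turned only in genes that did not pass. With repeated quantile normalization *IDH1* was at 0.027 (against the control) and 0.023 (against nystatin), and *KGD2* at 0.014 with nystatin alone. With each array left out, values against the control ran from −0.030 to 0.012 for *IDH1*, −0.039 to 0.10 for *KGD1*, −0.067 to 0.014 for *MDH1* and −0.18 to 0.016 for *ADR1*, those against nystatin from −0.051 to 0.028 for *IDH1*, and those with nystatin alone from −0.037 to 0.042 for *IDH1*, −0.029 to 0.012 for *KGD2* and −0.095 to 0.0025 for *RTG2*. A group left with 1 array takes its spread from the other groups.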
